A study of Triticum aestivum with 9 samples.

Results

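What remained changed from the control in wheat leaves that received the ER stress inducer DTT and the chemical chaperone TUDCA at the same time was measured in 6 RNA-seq libraries, 3 of the DTT + TUDCA treatment (T) and 3 of the control (C). The comparison was made for every gene whose mean FPKM over all 9 libraries of the series was at least 0.1, which kept 78030 of the 130542 genes in the table. FPKM is fragments per kilobase of transcript, scaled to the number of mapped fragments. The plants were seedlings of the cultivar Yunong211. In the DTT + TUDCA treatment the nutrient medium held 7.5 mM DTT and 25 μg/mL TUDCA, in the DTT treatment (D) it held 7.5 mM DTT, and control plants received neither chemical. Leaves were taken after 2 days, with 3 independent biological replicates per group. The DTT libraries entered the minimum on mean FPKM, the scaling and the estimate of the spread in the test. Below, they also appear as values beside those of the DTT + TUDCA treatment and in a direct contrast with it. DTT reduces disulfide bonds wherever it reaches, so these plants are a chemical model in 1 cultivar, and plants given TUDCA alone were not analysed here.

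Secreted and membrane proteins fold in the endoplasmic reticulum (ER), where Bip and its co-chaperones hold unfolded chains, protein disulfide isomerases (PDI) form disulfide bonds, and calnexin (CNX) retains unfinished glycoproteins. When unfolded protein accumulates, plant cells splice the mRNA of the transcription factor bZIP60 through the sensor IRE1, and the bZIP60 protein activates chaperone genes, which is a branch of the unfolded protein response. TUDCA, a bile acid, is used as a chemical chaperone that helps proteins to fold. Abscisic acid (ABA) signalling, the main hormonal response of leaves to water shortage, runs from PYR/PYL receptors through PP2C phosphatases, which the bound receptor inhibits, to SnRK2 kinases and the ABF transcription factors that these activate.

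DTT + TUDCA library 2 stood apart from the others. Among the 55137 genes that averaged 1 FPKM or more, 2186 (3.96%) differed more than 4-fold in it from the mean of the other libraries of its group, 1966 of them being lower, against 146 to 330 genes in each of the other 8 libraries. Results are therefore given with all libraries and, where that library mattered, without it. The fragments behind the FPKM values numbered 16334906 to 20228272 in the DTT + TUDCA libraries and 18366009 to 26760247 in the control libraries. Leaf identity was checked in the control libraries, where 18 of 20 photosystem I genes averaged at least 1 FPKM and 14 at least 100 FPKM. In the list of the photosystem II oxygen evolving complex, 20 of 24 genes averaged at least 1 FPKM.

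Compared with the control, 3405 genes (4.36% of those tested) were up-regulated and 2733 (3.50%) were down-regulated in the DTT + TUDCA treatment (7.87% together). A gene counted as changed when its unadjusted P-value was under 0.01 and its log2 fold change was 1 or more in either direction. The test was limma on scaled log2 FPKM, and genes that met these thresholds are called DEGs here. With Benjamini-Hochberg adjustment, 6052 genes (7.76%) passed an adjusted P-value of 0.05, and 4478 of the DEGs (5.74% of genes tested) were among them. The median log2 fold change of all tested genes was −0.02, and the T and C libraries did not overlap for 31.0% of tested genes, T being higher in 15.3% and lower in 15.7%. On FPKM as deposited, without scaling, the split was 4891 up-regulated and 1651 down-regulated genes, or 74.8% up-regulated in place of 55.5%, and the median of all genes was 0.16. Without DTT + TUDCA library 2, 2942 genes (3.77%) were up-regulated and 2143 (2.75%) down-regulated (6.52% together), and 2474 and 1784 of these were also DEGs in the same direction with all libraries. Without DTT + TUDCA library 1, 3497 genes were up-regulated and 4202 down-regulated, so that 45.4% of the DEGs were up-regulated and the larger number lay on the other side, and leaving out any 1 control library left 2585 to 2658 genes at an adjusted P-value under 0.05.

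The up-regulated genes had the larger folds. Their median log2 fold change was 1.64 against −1.53 for the down-regulated genes, and 185 up-regulated and 25 down-regulated genes changed by 4 or more on the log2 scale. Many of the up-regulated genes were close to silent in control leaves, since 602 of them had 3 fragments or fewer in every control library. Against a floor of 3 fragments per library, these 602 genes were at least 3.98-fold higher at the median, and 133 were at least 10-fold higher. Conversely, 335 down-regulated genes had 3 fragments or fewer in every DTT + TUDCA library, and their median lower bound was 2.54-fold. With the scaling of the test, the most abundant genes moved the other way. Among the 910 genes with a mean above 100 FPKM, 14.5% were down-regulated and 6.92% were up-regulated. These 2 shares were not computed with other scalings. The A, B and D subgenomes of hexaploid wheat had similar shares, with 4.23%, 4.61% and 4.94% of tested genes up-regulated and 3.92%, 3.94% and 4.10% down-regulated.

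**Figure D1:**
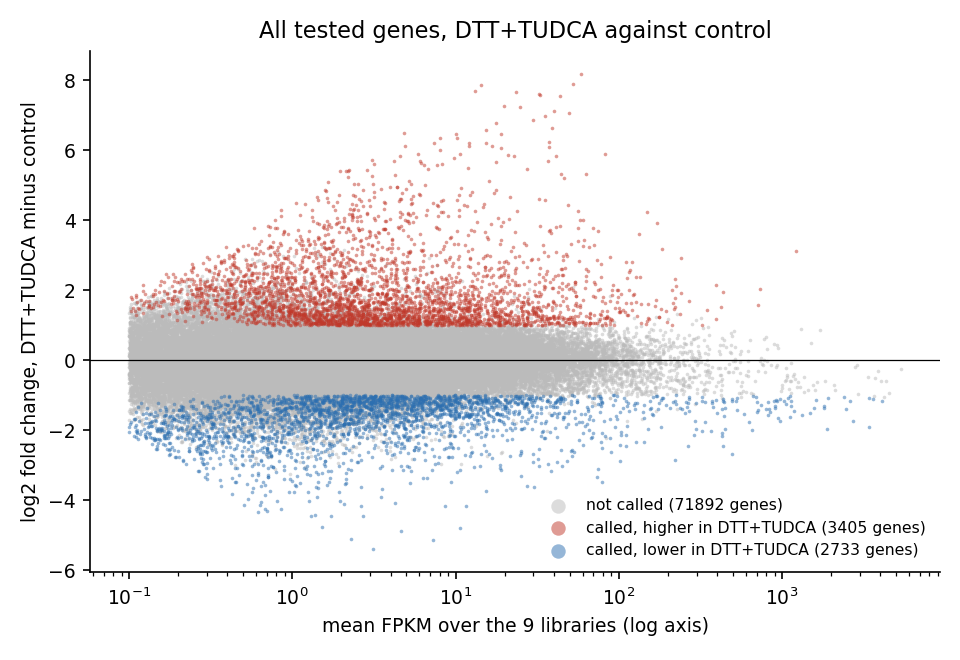
Log2 fold change (DTT + TUDCA minus control) of each of the 78030 tested genes against its mean FPKM over the 9 libraries on a log axis, with the 3405 up-regulated genes in red, the 2733 down-regulated genes in blue and the others in grey. Up-regulated genes reach a log2 fold change above 8, and down-regulated genes are the larger group among genes above 100 FPKM.

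The genes with the largest rises were nearly absent from control leaves. Traes_1AL_34404D5D8, annotated to lipid transport, had 66, 29.2 and 24.3 FPKM in the DTT + TUDCA libraries, against 0, 0 and 0.0715 FPKM in the control libraries, and was at least 253-fold higher. Traes_3AS_924A341AA, annotated to heme binding and oxidoreductase activity, had 27.8, 42.6 and 13.7 FPKM against 0, 0 and 0.0554 FPKM, at least 233-fold higher. The largest rises and falls were taken only from genes whose DTT + TUDCA and control libraries did not overlap. The genes Traes_2AL_0ADF02A1E and Traes_6DL_BD842B321 were at least 58.2-fold and 132-fold higher. Among the largest falls, Traes_5AL_8D5A83BF8, annotated as a cysteine-type endopeptidase, had 2.21, 0.434 and 1.14 FPKM in the DTT + TUDCA libraries and 41.6, 22.6 and 22.6 FPKM in the control libraries, a log2 fold change of −4.78 (SE 0.48, limma adjusted p = 7.5e-04). Traes_5DS_A92D3B63C, annotated to protein disulfide oxidoreductase activity, had 0.311, 0.365 and 0.578 FPKM against 11.6, 11 and 16.9 FPKM in the control libraries, at least 28.1-fold lower, and Traes_5BS_36C5B305D, with the same annotation, was at least 8.81-fold lower.

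Ranked by the change in FPKM itself, the single DEGs that met every criterion of the test included genes of asparagine synthesis among the rises and of carbonic anhydrase among the falls. Traes_5AL_4210A8A6E, in the asparagine biosynthesis list, had 2075, 878 and 1682 FPKM in the DTT + TUDCA libraries, against 244, 49 and 259 FPKM in the control libraries, with a log2 fold change of 3.13 (SE 0.58, limma adjusted p = 0.012). Another member of that list, Traes_5DL_70E5AA8DF, had 377, 134 and 440 FPKM against 38, 14.4 and 60.2 FPKM. For each gene the lowest DTT + TUDCA library exceeded the highest control library, but genes entered this ranking only if their libraries did not overlap. Traes_5BL_C4A77F5DB had 264, 290 and 391 FPKM against 13.3, 7.37 and 30.2 FPKM in the control libraries (log2 fold change 4.23, SE 0.44, limma adjusted p = 9.1e-04). The falls included carbonate dehydratase (carbonic anhydrase, which interconverts CO2 and bicarbonate): Traes_3AL_4F4132490 had 1381, 1805 and 2014 FPKM in the DTT + TUDCA libraries and 4373, 7057 and 3919 FPKM in the control libraries (−1.72, SE 0.34, limma adjusted p = 0.015). Traes_4DS_5C2095EE7, annotated to chaperone-mediated protein folding, had 1889, 2120 and 2095 FPKM against 4010, 4321 and 3688 FPKM in the control libraries. For these 2 abundant genes the call was lost under quantile normalization, where the log2 fold changes were −0.84 and −0.24.

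The bZIP60 orthologs remained high under DTT + TUDCA. On chromosome arm 7AL, Traes_7AL_25850F96F had 23, 57.2 and 22.1 FPKM in the DTT + TUDCA libraries and 3.57, 3.43 and 4.43 FPKM in the control libraries, and its log2 fold change was 2.80 (SE 0.41, limma adjusted p = 0.0043). On 7BL, Traes_7BL_625F55A12 had 26.3, 84.1 and 25.9 FPKM against 4.03, 4.24 and 4.59 FPKM (2.96, SE 0.44, limma adjusted p = 0.0046). On 7DL, Traes_7DL_3CE000E38 had 22.5, 52.9 and 24.4 FPKM against 4.4, 3.2 and 5.27 FPKM (2.65, SE 0.37, limma adjusted p = 0.0032). No DTT + TUDCA library overlapped a control library for these 3 genes, and library 2 was the highest each time. Without it the log2 fold changes were 2.33, 2.37 and 2.23, and all 3 remained DEGs. In the DTT treatment, which shares the control libraries, they were 1.80, 1.89 and 1.81. FPKM does not separate the spliced from the unspliced bZIP60 mRNA, and reads of near-identical homoeologs may have been shared among them.

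Of the 66 genes that the study listed for protein processing in the ER, 38 were up-regulated and 15 down-regulated in the DTT + TUDCA treatment. Of all tested genes 4.36% were up-regulated and 3.50% down-regulated. In the list 49 genes had an adjusted P-value under 0.05 (7.76% of all tested genes). The median log2 fold change was 1.57 against −0.02 for all genes. The study compiled this list, like the others used here, from genes it had found changed in these libraries, so the counts describe its members and are not independent evidence of direction. Without DTT + TUDCA library 2, 35 were up-regulated and 8 down-regulated, and without control library 1, 9 were down-regulated. The libraries of T and C did not overlap for most of these genes, T being higher in 43 and lower in 16. Over all tested genes these shares were 15.3% and 15.7%. In the same list 27 genes were up-regulated and 9 down-regulated by DTT alone against the same controls, where 4.27% and 3.75% of all tested genes were (8.02% together), and the median was 1.16.

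Bip, the ER-resident Hsp70 that binds unfolded chains, had the highest median of the folding classes. The FPKM of its 6 genes summed to 78.6, 164 and 44.3 in the DTT + TUDCA libraries, against 14.1, 10.7 and 8.82 in the control libraries, and 5 of the 6 were up-regulated. Most of the sum came from Traes_6AS_236AF32FD, with 62.8, 128 and 32 FPKM against 14, 10.7 and 8.8 FPKM (log2 fold change 2.34, SE 0.49, limma adjusted p = 0.02). Its lowest DTT + TUDCA library was above its highest control library. The other 5 Bip genes had 3 fragments or fewer in each control library. Among them, Traes_2BL_44AF6C8FD had 9.18, 19 and 4.66 FPKM against 0 in all 3 control libraries, at least 44.7-fold higher, and Traes_2AL_A6DF4B935 was at least 31.8-fold higher. Without library 2 these bounds were 27.2-fold and 19.9-fold. The remaining member, Traes_7DL_988A0B630, was not a DEG, with 0.232, 1.16 and 0.287 FPKM against 0 in each control library.

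PDI genes had a higher summed FPKM than Bip. The 8 members summed to 307, 662 and 232 FPKM in the DTT + TUDCA libraries and to 81.6, 63.3 and 68.5 FPKM in the control libraries, with a ratio of means of 5.63, or 3.79 without DTT + TUDCA library 2. Traes_4AL_F23B2CEFB had 85.8, 165 and 59.9 FPKM against 17.5, 16.2 and 13.6 FPKM in the control libraries (log2 fold change 2.40, SE 0.32, limma adjusted p = 0.0029). The groups did not overlap for this gene, and in all 7 up-regulated PDI genes the log2 fold change lay between 1.14 and 2.78. The lowest of these, Novel09086, was no DEG without library 2 (0.93). The exception was Traes_6AS_5896DC565, which had 3.61, 1.22 and 2.2 FPKM against 4.86, 3.48 and 4.37 FPKM and was a down-regulated DEG with all libraries (−1.12, limma adjusted p = 0.064) but not without DTT + TUDCA library 2 (−0.77) or without any 1 control library.

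The co-chaperones of Bip changed with it. All 3 genes of the Hsp40 class (J-domain proteins that stimulate Hsp70) were up-regulated, with a summed FPKM of 87, 187 and 81.6 in the DTT + TUDCA libraries and 28.6, 23.7 and 27.1 in the control libraries. All 6 genes of the nucleotide exchange factor class (NEF, which let Hsp70 release its client) were up-regulated, with sums of 72.1, 173 and 57.4 FPKM against 22.3, 20.6 and 18.6 FPKM. The calnexin gene Traes_6AS_9E2248EE8 had 12.1, 32.1 and 12.2 FPKM against 4.58, 4.92 and 3.29 FPKM in the control libraries (1.79, SE 0.37, limma adjusted p = 0.02). In each of these classes DTT + TUDCA library 2 was more than 2 times as high as the other libraries of its group, and all of the calls also held without it. Glucosidase I (Glc I, which trims N-glycans) was up-regulated as well, with a log2 fold change of 1.45 for Novel04851.

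Translocation and vesicle genes were split. SEC61 forms the channel through which chains enter the ER, and 4 of its 6 genes were up-regulated while 2 were down-regulated (3 and 1 without DTT + TUDCA library 2). Traes_4BL_268EB5B53 had 19.8, 39 and 12.4 FPKM in the DTT + TUDCA libraries, against 0.638, 0.521 and 0.677 FPKM in the control libraries (4.74, SE 0.46, limma adjusted p = 6.7e-04). Traes_5BL_2CE7AAFD8, of the same class, had 16.6, 3.52 and 10.4 FPKM against 29.8, 20.3 and 23.3 FPKM (−1.68, SE 0.44, limma adjusted p = 0.047), a call that was lost without control library 1. The libraries of the groups were separate for each of these genes, in opposite directions. SAR1 is the GTPase that starts the COPII coat of vesicles leaving the ER, and Traes_7AL_FDC2E2F77 had 19.8, 67.7 and 10.8 FPKM against 0 in all control libraries, at least 240-fold higher with all libraries and at least 107-fold without library 2. All 3 SAR1 genes were up-regulated, or 2 without library 2. The COPII coat class Sec23/24 went the other way in all 3 members (log2 fold changes −1.12 to −1.85), but none of these had an adjusted P-value under 0.05 and none was a DEG without library 2.

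**Figure D2:**
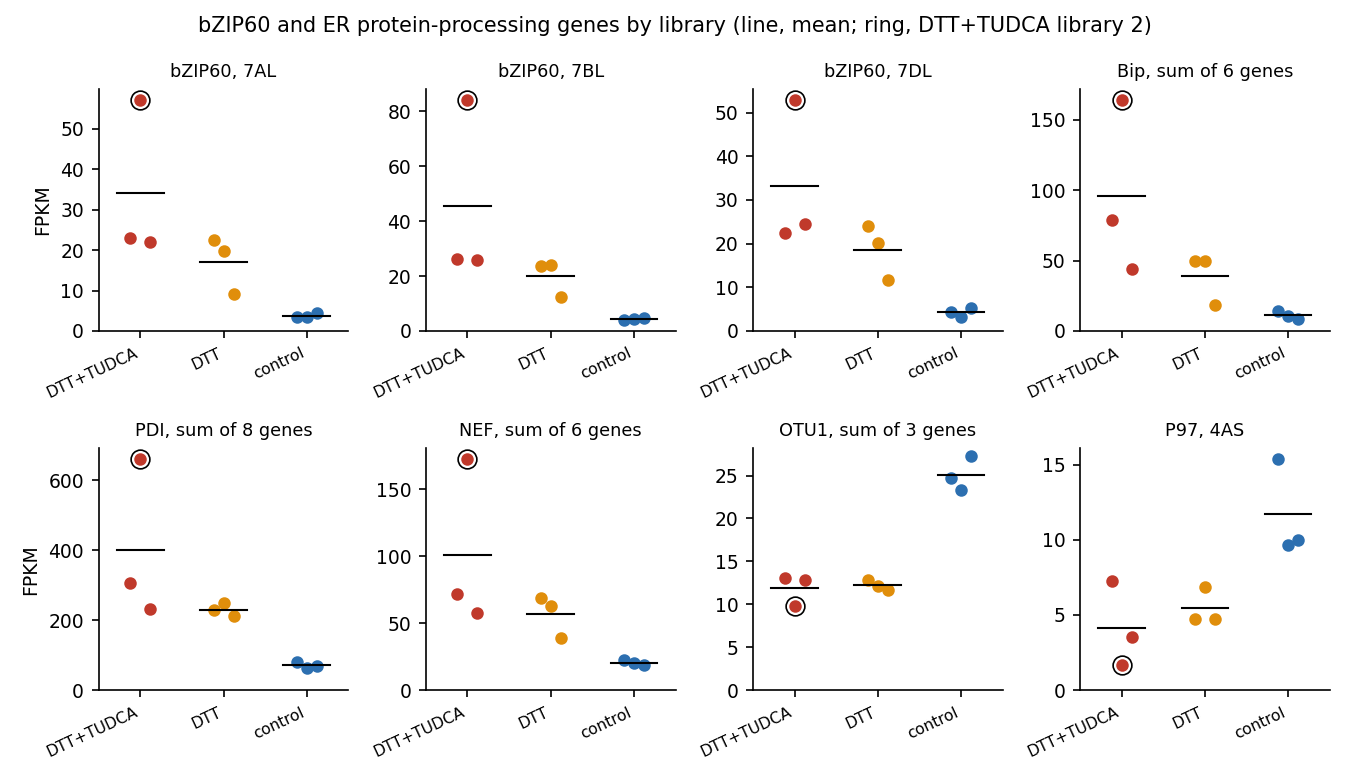
FPKM in each library of the 3 bZIP60 genes and of P97, and FPKM summed over the Bip, PDI, NEF and OTU1 classes, in the DTT + TUDCA (red), DTT (orange) and control (blue) groups, with a line at each group's mean and a ring around DTT + TUDCA library 2. For bZIP60, Bip, PDI and NEF all red points lie above the blue points, as for Bip at 44.3 to 164 against 8.82 to 14.1, and for OTU1 and P97 they lie below.

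Several genes of the ER list that act in extraction and ubiquitination of misfolded proteins were down-regulated. These steps belong to ER-associated degradation, in which chaperones such as Hsp40 and Hsp70 also take part. The only listed P97 gene (the ATPase that extracts them), Traes_4AS_365CB9111, had 7.24, 1.7 and 3.52 FPKM in the DTT + TUDCA libraries and 15.4, 9.68 and 10 FPKM in the control libraries (−1.86, SE 0.41, limma adjusted p = 0.026). All 3 genes of OTU1, a deubiquitinase that works with P97, were down-regulated and had a summed FPKM of 13.1, 9.76 and 12.8 against 24.7, 23.3 and 27.3. Of these, Traes_6DS_9ED841904 had the largest fall, with 4.95, 4.29 and 4.21 FPKM against 11.5, 10.4 and 13.1 FPKM (−1.55, SE 0.16, limma adjusted p = 9.1e-04), and Traes_6AS_0FDBBF9E9 was no DEG without library 2, while on FPKM as deposited 1 of the 3 was. The ubiquitin-conjugating enzyme UbcH5 gene Traes_6AS_E011BC5BB was also down-regulated (−1.60, SE 0.24, limma adjusted p = 0.0049), while the other UbcH5 gene and both RMA1 ubiquitin ligase genes were not DEGs.

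The other listed chaperone classes were mixed. Of 9 genes in the Hsp70 class, 5 were up-regulated and none down-regulated, and Traes_4AS_B978C93FA had 43.3, 61.9 and 18 FPKM in the DTT + TUDCA libraries against 5.9, 5.64 and 2.56 FPKM in the control libraries (2.83, SE 0.45, limma adjusted p = 0.0064). The small heat shock class (sHSF) had 3 up-regulated and 3 down-regulated genes of 8. For GRP94, the ER-resident Hsp90, the gene Traes_5BS_AB86BB5DE had 9.21, 10.4 and 6.33 FPKM in the DTT + TUDCA libraries and 9.56, 9.01 and 11 FPKM in the control libraries, so that the groups overlapped (−0.40, SE 0.20, limma adjusted p = 0.24). Other chaperone-related lists leaned lower, and their members came from genes that the study had found changed by DTT. In the gene ontology (GO) list heat shock protein binding, all 9 tested genes had a negative log2 fold change, with a median of −0.88 and 7 at an adjusted P-value under 0.05, although 1 was a DEG (2 without library 2). The list unfolded protein binding had 2 up-regulated and 3 down-regulated genes of 23 and a median of −0.56. Among all tested genes 4.36% were up-regulated, 3.50% were down-regulated and 7.76% passed an adjusted P-value of 0.05. Traes_6AS_E5254BC5B, a member of both lists, fell most, with 3.67, 2.25 and 4.16 FPKM against 26.1, 30.5 and 9.71 FPKM in the control libraries (−2.76, SE 0.40, limma adjusted p = 0.0043).

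Tested directly, the DTT + TUDCA and DTT treatments differed in few genes. With the same thresholds 493 genes (0.632%) were higher and 364 (0.466%) lower (1.10% together) in the DTT + TUDCA treatment than in the DTT treatment, and limma with Benjamini-Hochberg adjustment left 1 gene (0.00128%) at an adjusted P-value under 0.05, against 5793 (7.42%) at an unadjusted P-value under 0.05. In the ER list 9 genes were higher and 1 lower in the DTT + TUDCA treatment, among them 3 of the Bip class (1 without library 2), and 3 were higher and 2 lower without DTT + TUDCA library 2, where 0.447% and 0.343% of all tested genes were (0.791% together). The median difference of the ER list was 0.66, and in this contrast no gene of the list passed an adjusted P-value of 0.05. The study drew the list from genes changed in any of its comparisons, this contrast included, so these counts are not independent of that choice.

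The core ABA signalling classes each moved one way in nearly all of their genes. Their members are genes that the study had found changed by DTT in these libraries. Over all tested genes, 4.36% were up-regulated and 3.50% down-regulated. Of 25 PP2C genes, 24 were up-regulated in the DTT + TUDCA treatment with or without library 2, with a median log2 fold change of 3.78. Their FPKM summed to 734, 489 and 425 in the DTT + TUDCA libraries, against 46.6, 45.3 and 45.2 in the control libraries, a ratio of means of 12. The control sums were almost identical, and the lowest DTT + TUDCA sum was several times the highest of them. TRAES3BF069100050CFD_g, on chromosome 3B, had 101, 60.6 and 64.6 FPKM against 4.58, 4.92 and 4.29 FPKM (3.78, SE 0.25, limma adjusted p = 1.4e-04). Traes_2DS_EB5F25337 had 28.8, 33.9 and 11.4 FPKM against 0.169, 0 and 0 FPKM, at least 45.7-fold higher, and was 1 of 10 PP2C genes with 3 fragments or fewer in every control library. The PP2C gene that was not up-regulated, Traes_1AL_087978D78, had 1.24, 0.938 and 1.04 FPKM against 1.91, 2 and 1.11 FPKM.

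The PYR/PYL receptors, upstream of the PP2Cs, were all lower. The 5 genes summed to 24.3, 66.1 and 12.6 FPKM in the DTT + TUDCA libraries and to 89.9, 101 and 105 FPKM in the control libraries. All 5 were DEGs, 3 of them at an adjusted P-value under 0.05, with a median log2 fold change of −2.27, and −2.82 without library 2, which lay nearest to the controls. Traes_4DL_3A1814A74 had 1.49, 3.33 and 0.878 FPKM against 11, 14.2 and 12.2 FPKM (−3.02, SE 0.46, limma adjusted p = 0.0048). The groups did not overlap for any of the 5 genes, while T lay below C without overlap for 15.7% of all tested genes.

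Downstream of the PP2Cs, 10 of 14 SnRK2 genes were up-regulated and 1 was down-regulated (7 and 1 without library 2). Their FPKM summed to 151, 119 and 108 in the DTT + TUDCA libraries, against 39.4, 37.3 and 41.4 in the control libraries. Traes_2DL_6CD064E13 had 34.4, 33.3 and 24 FPKM against 6.03, 6.2 and 5.43 FPKM (2.15, SE 0.20, limma adjusted p = 4.6e-04), while Traes_2AS_64E0EF151 had 4.39, 2.94 and 3.09 FPKM against 6.97, 6.26 and 7.16 FPKM (−1.16, SE 0.19, limma adjusted p = 0.0074). These sets of libraries were separate, in opposite directions. Of 9 ABF genes, 7 were up-regulated, or 8 without library 2, and their sums were 288, 193 and 237 FPKM against 72.6, 61.6 and 59.5 FPKM. Traes_6AL_E8CD2C02B had 53.8, 55.7 and 50.2 FPKM against 7.98, 10.3 and 7.84 FPKM in the control libraries (2.42, SE 0.20, limma adjusted p = 2.9e-04), with little spread within either group.

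**Figure D3:**
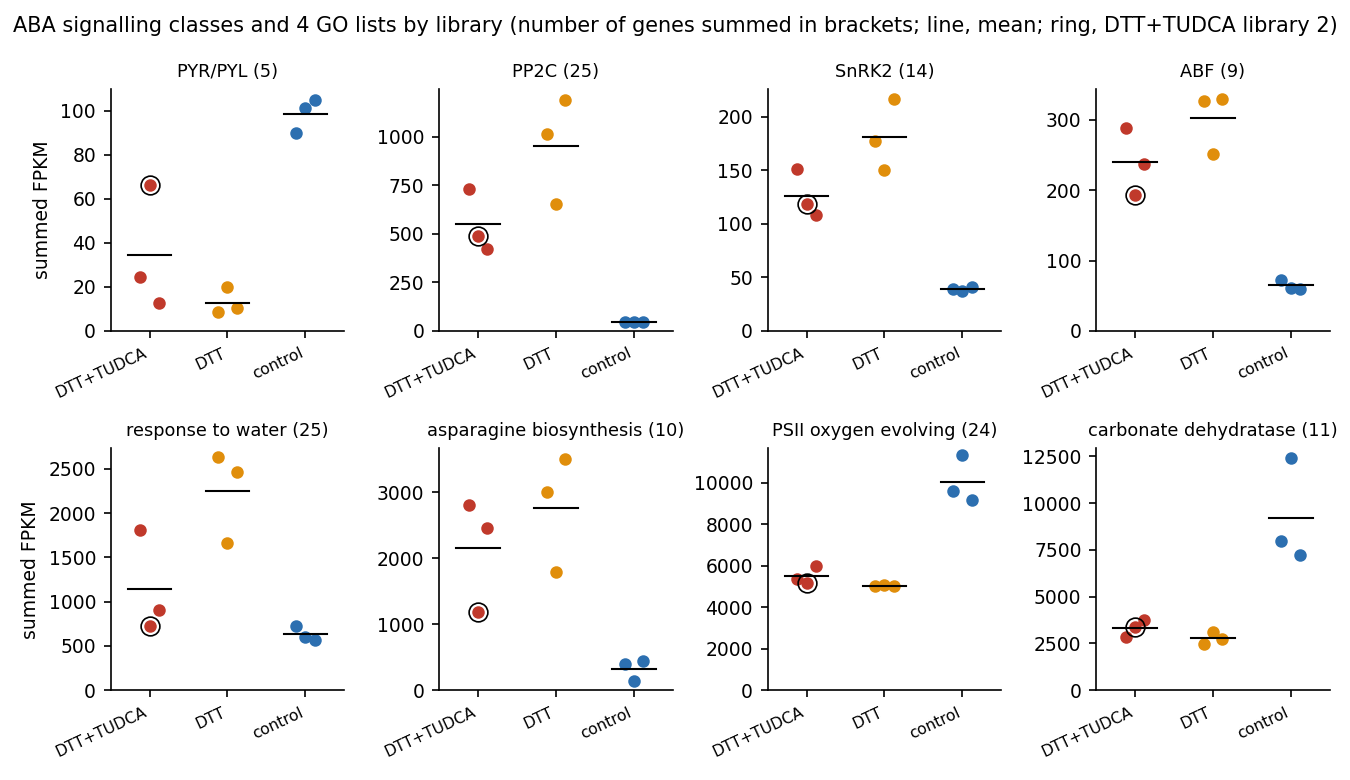
FPKM summed over the genes of each ABA signalling class and of 4 GO lists in each library of the DTT + TUDCA (red), DTT (orange) and control (blue) groups, with a line at the mean and a ring around DTT + TUDCA library 2. The red points lie above the blue ones for PP2C (425 to 734 against 45.2 to 46.6), SnRK2, ABF and asparagine biosynthesis, below them for PYR/PYL, the oxygen evolving complex and carbonate dehydratase, and overlap them for the summed response to water.

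Genes of the other hormone pathways in the list were mostly lower. In all, 45 of 97 tested hormone signalling genes were up-regulated and 27 down-regulated, with a median of 0.91, and 62 passed an adjusted P-value of 0.05. Over all tested genes these shares were 4.36%, 3.50% and 7.76%. The study had taken the list from genes changed by DTT in these libraries. Without control library 2 or 3, 14 or 17 genes of the list were down-regulated. The 41 up-regulated members of the PP2C, SnRK2 and ABF classes made up most of the up-regulated genes. PR-1, the marker of salicylic acid responses, had 8 of 10 genes down-regulated with all libraries (4 at an adjusted P-value under 0.05), 4 without library 2 and 6 with the replicate number as a block, which ended 3 of the calls, and had sums of 1185, 288 and 397 FPKM in the DTT + TUDCA libraries against 2341, 1440 and 2360 FPKM in the control libraries. With all libraries, the DEGs of this list in the cytokinin (A-ARR and B-ARR) and auxin (AUX/IAA and SAUR) classes were all down-regulated. Each auxin class had 1 DEG among 4 genes. The DEGs of the ethylene (EBF1/2, EIN2 and EIN3) and jasmonate (JAR1) classes were also all down-regulated with all libraries. The EIN2 gene Novel05921, which was not a DEG then (0.91), was up-regulated without library 2 (1.23) and on FPKM as deposited. Among them, the A-ARR gene Traes_2AL_A26170C43 had 0.568, 2.14 and 1.04 FPKM against 3.89, 4.31 and 3.68 FPKM (−1.94, SE 0.41, limma adjusted p = 0.021), and the EBF1/2 gene Traes_6AS_5A19432A11 had 15.4, 11.9 and 14.5 FPKM against 35, 29.5 and 28.9 FPKM (−1.35, SE 0.19, limma adjusted p = 0.004). Up-regulated members outside the ABA classes were 2 TGA genes (1 without library 2) and 2 genes of the brassinosteroid receptor class BRI1. Of the 12 AUX/IAA genes in the study's transcription factor list, 3 were up-regulated and 2 down-regulated, with a median of 0.24. Without library 2 these counts were 4 and 3.

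The GO list response to water had the highest median of all lists, 3.76, or 3.11 with genes at the floor set to their bound. Of its 25 genes, 19 were up-regulated and 1 was down-regulated, where 4.36% and 3.50% of all tested genes were. The study had taken the list from genes changed by DTT in these libraries. In the list, 15 genes had 3 fragments or fewer in every control library. Traes_6DL_518F5BCCC had 54.3, 11.9 and 35.3 FPKM in the DTT + TUDCA libraries against 0, 0.0421 and 0 FPKM in the control libraries, at least 264-fold higher. Traes_5BL_3B390119D had 25.7, 7.7 and 11.8 FPKM against 0.0605, 0 and 0 FPKM, at least 76.4-fold higher, or 50.3-fold without DTT + TUDCA library 1. Novel16561, a transcript added by the authors and annotated as the dehydrin DHN3, a protein that protects dehydrating cells, had 14.7, 5.15 and 8.36 FPKM against 0, 0.067 and 0.138 FPKM, at least 46.2-fold higher. DTT + TUDCA library 2 was the lowest of its group in these 3 genes and still above every control library.

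The summed FPKM of the list changed less, with 1811, 720 and 911 in the DTT + TUDCA libraries and 726, 601 and 572 in the control libraries, and abundant members changed less than the rare ones or fell. Novel17043 had 503, 175 and 223 FPKM against 137, 123 and 112 FPKM and was not a DEG (0.94, SE 0.33, limma adjusted p = 0.11), whereas Novel05889 had 228, 149 and 207 FPKM against 452, 351 and 356 FPKM (−1.19, SE 0.19, limma adjusted p = 0.0066). In the DTT treatment the median of this list was 5.54 against the same controls. In the direct contrast 10 of the 25 genes were lower in the DTT + TUDCA than in the DTT treatment, where 0.466% of all tested genes were. The median difference was −1.62. Without library 2, 9 of the genes were lower, where 0.343% of all tested genes were. The list holds genes that the study found changed in these same DTT libraries, so this contrast is not independent of the choice of genes. With all libraries, 1 of all tested genes passed a limma adjusted P-value of 0.05 in it.

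Among 10 further candidate genes that the study had selected from these libraries, 5 were up-regulated against the control and none was down-regulated. The shares over all tested genes were 4.36% and 3.50%. The P5CS gene TRAES3BF274400020CFD_g, whose enzyme makes the osmolyte proline, had 1.41, 1.14 and 1.53 FPKM in the DTT + TUDCA libraries against 0 in all control libraries, at least 9.3-fold higher. The mlo gene Traes_2BS_DABEABDDC had 1.68, 2.16 and 1.1 FPKM against 0.0537, 0.144 and 0.178 FPKM (2.82, SE 0.40, limma adjusted p = 0.0038). The 2-oxoglutarate-dependent oxygenase gene Traes_2DL_F2D3DED15 had 17.7, 16.1 and 11.5 FPKM against 2.46, 2.19 and 3.01 FPKM (2.32, SE 0.25, limma adjusted p = 0.001). No DTT + TUDCA library overlapped a control library for these 3 genes.

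The listed photosystem genes were mostly lower, by an amount that depended on the scaling. The 24 genes listed for the oxygen evolving complex, which takes electrons from water at photosystem II, summed to 5357, 5196 and 5999 FPKM in the DTT + TUDCA libraries and to 9595, 11357 and 9159 FPKM in the control libraries, a ratio of means of 0.55. Of these genes 10 were down-regulated (5 without control library 2, 4 on FPKM as deposited and 6 after quantile normalization) and 5 up-regulated. Among all tested genes 3.50% were down-regulated and 4.36% up-regulated. The median was −0.92 in the test used here, −0.73 on FPKM as deposited and −0.62 after quantile normalization. Traes_2AL_0A039E562 had 664, 459 and 607 FPKM against 1343, 1461 and 1161 FPKM (−1.40, SE 0.21, limma adjusted p = 0.0053), and −0.73, below the fold limit of a DEG, after quantile normalization. In contrast Traes_2BL_CF3CFE8FE, of the same list, had 41, 7.38 and 14.7 FPKM against 0.131, 0.282 and 0.0968 FPKM, at least 49-fold higher, or 26.1-fold without DTT + TUDCA library 1. Because whole leaves were sequenced, fewer cells of a type and less RNA per cell cannot be told apart.

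The 20 photosystem I genes summed to 9775, 10136 and 11674 FPKM in the DTT + TUDCA libraries, against 17347, 23385 and 16552 FPKM in the control libraries, and 11 were down-regulated (6 without control library 2) and 3 up-regulated. Traes_3DS_4EF0DAA39 fell most, with 406, 213 and 342 FPKM against 775, 711 and 598 FPKM (−1.35, SE 0.24, limma adjusted p = 0.0096). For 15 of the 20 genes all DTT + TUDCA libraries were below all control libraries, as they were for 15.7% of all tested genes. The size of this change depended on the scaling, for the median was −1.01 in the test used here, −0.82 on FPKM as deposited and −0.30 after quantile normalization, where 2 genes were down-regulated, although 16 of the 20 genes had a negative log2 fold change in each case. Carbonate dehydratase activity showed a larger change, with 8 of 11 genes down-regulated and 3 up-regulated, and sums of 2824, 3383 and 3756 FPKM against 7963, 12435 and 7219 FPKM in the control libraries. Its median also depended on the scaling, being −1.85 in the test used here, −1.68 on FPKM as deposited and −1.29 after quantile normalization. The list cellulose synthase activity had 12 of 20 genes down-regulated and 1 up-regulated, with 6 and 1 without library 2. Beside the counts of these lists, 3.50% of all tested genes were down-regulated and 4.36% up-regulated.

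Beta-fructofuranosidase (invertase, which splits sucrose) had 10 of 15 genes up-regulated and 3 down-regulated, and Traes_6DS_204661A07 had 77.4, 43.2 and 23.5 FPKM in the DTT + TUDCA libraries against 0.302, 0.189 and 0.111 FPKM in the control libraries (7.06, SE 0.40, limma adjusted p = 9.3e-05). Another gene of the list, Traes_6AS_AC24F31A6, had 66.9, 21.9 and 14.6 FPKM against 0.23, 0.0898 and 0.0308 FPKM. For these genes every DTT + TUDCA library was far above every control library. In the sucrose metabolic process list 6 of 12 tested genes were up-regulated and none was down-regulated, and the transaminase list had 10 of 13 genes up-regulated and none down-regulated, its sums being 387, 357 and 312 FPKM against 143, 94 and 106 FPKM. Beside the counts of these lists, 4.36% of all tested genes were up-regulated and 3.50% down-regulated.

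Asparagine biosynthesis had 5 of 10 genes up-regulated and none down-regulated, with sums of 2808, 1184 and 2460 FPKM in the DTT + TUDCA libraries and 400, 140 and 446 FPKM in the control libraries. The ratio of means was 6.55, and library 2 was lowest within each group. The list DNA catabolic process had 12 of 15 genes up-regulated and none down-regulated (median 2.28). Its leading gene, Traes_2DL_5379C1D05, had 18.8, 9.69 and 5.28 FPKM against 0.815, 0.119 and 0.273 FPKM (4.42, SE 0.56, limma adjusted p = 0.0022). Chitinase activity had 3 of 8 genes up-regulated, led by Traes_2BL_E366A5226 with 83.3, 30.2 and 79.2 FPKM against 2.79, 2.95 and 5.28 FPKM in the control libraries (3.83, SE 0.43, limma adjusted p = 0.0012). Up-regulated genes made up 4.36% of all tested genes and down-regulated genes 3.50%.

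**Figure D4:**
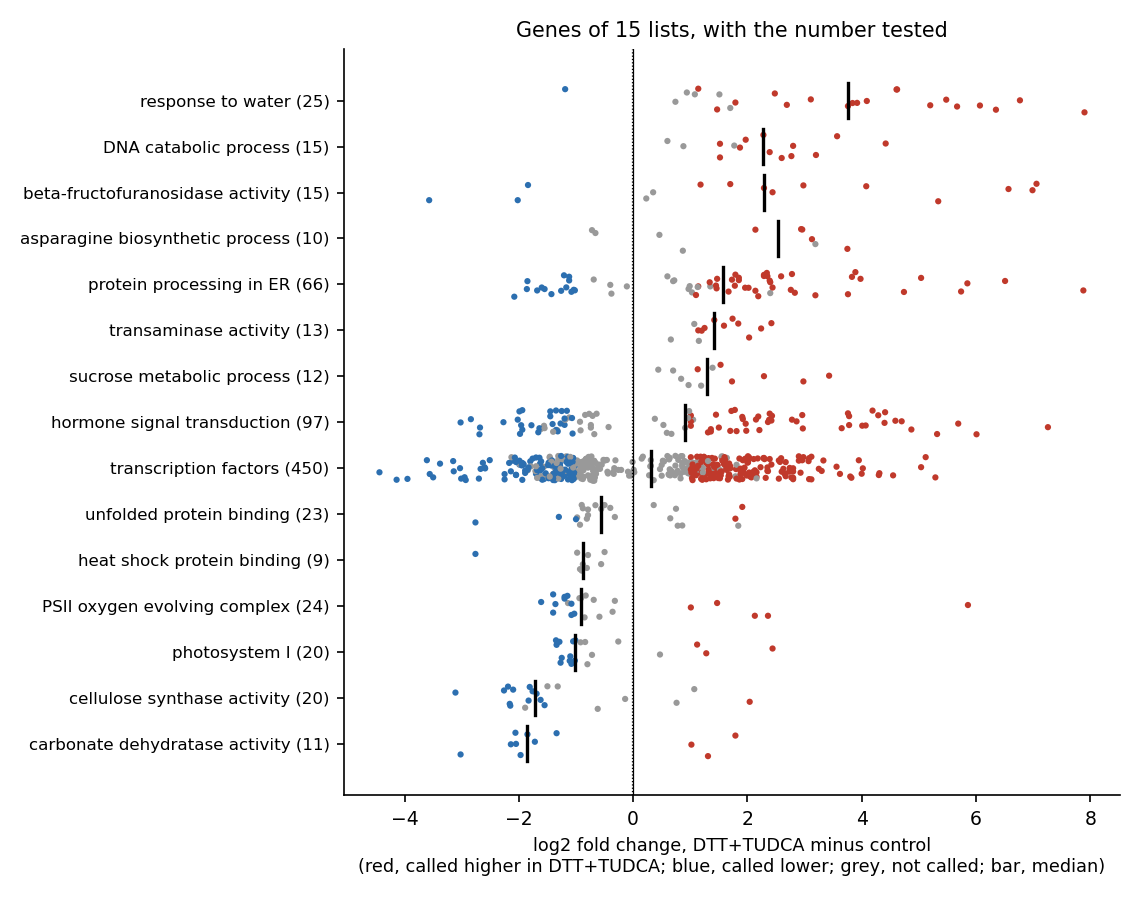
Log2 fold change (DTT + TUDCA minus control) of every tested gene in 15 gene lists, 1 point per gene, red for up-regulated, blue for down-regulated and grey for other genes, with a bar at the median of each list and the number of genes tested beside its name. Medians range between 3.76 for response to water and −1.85 for carbonate dehydratase activity, and the transcription factors spread to both sides of 0.

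For the remaining lists only the counts and the range of the medians are given. 1-Deoxy-D-xylulose-5-phosphate synthase activity (the first step of plastid isoprenoid synthesis) had 5 of 9 genes up-regulated and none down-regulated, and ribonuclease T2 activity had 7 of 11 up-regulated and 1 down-regulated. Glutamate synthase activity had 5 of 8 genes up-regulated and 3 down-regulated, trehalose metabolic process 5 and 3 of 13 (3 and 2 without library 2), chlorophyll catabolic process 4 and 2 of 11, and glutathione metabolic process 3 and 4 of 8. More members were down-regulated than up-regulated in ribosome biogenesis (13 against 9 of 36), the pentose-phosphate shunt (8 against 3 of 23), siroheme biosynthetic process (6 against 2 of 17) and galactosidase activity (5 against 1 of 10, and 2 against 1 on FPKM as deposited). The medians of these 10 lists lay between −1.07 and 1.63.

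Among 450 tested transcription factor genes from the study's list, 162 were up-regulated and 113 down-regulated, with a median of 0.31, or 0.00 with genes at the floor set to their bound. Of all tested genes 4.36% were up-regulated and 3.50% down-regulated. The study drew this list from genes that it had found changed in these libraries, so high counts follow from the choice. In several families the DEGs lay mostly on one side. NAC genes, a plant family with many stress-responsive members, were up-regulated in 19 and down-regulated in 3 of 39 cases, as were bZIP genes in 19 and 3 of 29, HB genes in 12 and 3 of 19, and C2H2 genes in 12 and 1 of 20. Heat shock factor (HSF) genes were up-regulated in 10 of 14 cases and down-regulated in none. The NAC gene Traes_5DL_D1D0CA79E had 17.6, 10.6 and 16.7 FPKM in the DTT + TUDCA libraries against 1.09, 0.83 and 0.44 FPKM in the control libraries (3.95, SE 0.41, limma adjusted p = 9.1e-04). The HB gene Traes_2BL_B69300543 had 106, 43 and 48.5 FPKM against 4.15, 3.1 and 2.58 FPKM (4.0, SE 0.34, limma adjusted p = 3.3e-04). In both genes the libraries of the groups were well separated.

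WRKY genes, known from pathogen responses, were up-regulated in 11 of 18 cases and down-regulated in none, whereas 4 were up-regulated and 3 down-regulated by DTT against the same controls. In the direct contrast 6 WRKY genes were higher and none lower in the DTT + TUDCA than in the DTT treatment (4 and none without library 2). Of all tested genes 0.632% were higher and 0.466% lower in that contrast, and 1 gene passed a limma adjusted P-value of 0.05. The study drew its transcription factor list from genes changed in any of its comparisons, that contrast included. The WRKY counts are therefore not independent of the choice of genes. Against the control, 4.36% of all tested genes were up-regulated and 3.50% down-regulated. Without DTT + TUDCA library 2, 8 WRKY genes were up-regulated and 2 down-regulated against the control. Traes_5DL_7E2053226 had 1.04, 1.88 and 1.37 FPKM in the DTT + TUDCA libraries against 0.189, 0.271 and 0.255 FPKM in the control libraries (2.00, SE 0.35, limma adjusted p = 0.0095). MYB genes were divided, with 15 up-regulated and 19 down-regulated of 44, as were AP2-EREBP genes, with 7 and 10 of 28. The MYB gene Traes_3AS_4DF357170 had 58.6, 37.3 and 33.1 FPKM against 4.07, 1.8 and 2.23 FPKM (3.80, SE 0.32, limma adjusted p = 3.3e-04), and Traes_1DL_A20157EC5 had 0 in all DTT + TUDCA libraries against 1.54, 1.65 and 1.38 FPKM in the control libraries, at least 3.07-fold lower.

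OPR1 genes, of the 12-oxophytodienoate reductase family, diverged between chromosome arms. Traes_6DL_94DCF0B70 had 6.43, 5.83 and 4.62 FPKM in the DTT + TUDCA libraries against 0.245, 0.264 and 0.31 FPKM in the control libraries (3.78, SE 0.31, limma adjusted p = 2.9e-04). Its log2 fold change in the DTT treatment against the same controls was 0.85, and the direct contrast of DTT + TUDCA with DTT gave 2.92 (limma adjusted p = 0.08). Traes_2AS_A9F768C2B went the other way, with 13.5, 19.6 and 12 FPKM against 30.9, 28.7 and 34.3 FPKM (−1.27, SE 0.24, limma adjusted p = 0.013), as did Traes_2DS_A886F6C92 (−1.52, SE 0.28, limma adjusted p = 0.012). The gene Traes_6BL_5B613F9E5 was looked up after its values were seen because its qPCR primer is shared with Traes_6DL_94DCF0B70. It had 14.6, 27.4 and 14.8 FPKM against 0.814, 1.14 and 1.41 FPKM (3.75, SE 0.31, limma adjusted p = 2.9e-04). Both 6BL and 6DL genes were separate from the control in every library.

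The study's qPCR primers for these genes and for a pair of Bip genes are given, 5′ to 3′, because a primer can be common to more than 1 gene, with capitals for a primer that 2 genes share.
Traes_6DL_94DCF0B70 forward: tcccacagggtggttcttgc
Traes_6BL_5B613F9E5 forward: ccctcctcgcccactacaag
Traes_6DL_94DCF0B70 and Traes_6BL_5B613F9E5 reverse: AGGCCTCCTTTGGTTGCTCT
Traes_2BL_44AF6C8FD forward: agctcaacgccgacctcttc
Traes_2BL_44AF6C8FD reverse: gctgctgcaccttgggaatc
Traes_2AL_A6DF4B935 forward: ggacaagctggcagacaagc
Traes_2AL_A6DF4B935 reverse: ctcggccgtctggttctcat

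The superoxide dismutase (SOD) genes, whose enzyme removes superoxide, were lower without a clear call. Traes_7AL_E14A72218 had 96.6, 57.3 and 95.8 FPKM in the DTT + TUDCA libraries and 130, 99 and 164 FPKM in the control libraries and was not a DEG (−0.85, SE 0.24, limma adjusted p = 0.06). Its primer-sharing partner Traes_7BL_A42D6C984 had 42.2, 14.9 and 30.6 FPKM against 60.9, 38 and 67.5 FPKM. That partner was a DEG with all libraries (−1.19, SE 0.34, limma adjusted p = 0.06) and not without DTT + TUDCA library 2 (−0.80) or without control library 1 or 3. Traes_1AS_36AF74187, an ortholog of the Arabidopsis factor MYB112, was at least 4.95-fold higher in the DTT + TUDCA treatment, with 0.69, 0.768 and 0.315 FPKM against 0 in all control libraries.

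A set of 3859 genes met every criterion at once, being DEGs with an adjusted P-value under 0.05, with DTT + TUDCA and control libraries that did not overlap, and called in the same direction without DTT + TUDCA library 2. Of these, 2257 were up-regulated and 1602 down-regulated. In the DTT treatment, 3328 genes were up-regulated and 2927 down-regulated against the same controls.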

How the data were processed

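RNA was sequenced from wheat leaves of 3 groups, with 3 independent biological replicates each. Per the labels and the study's methods, the authors aligned reads with TopHat2 2.0.12 and Bowtie2 2.2.3, counted fragments with HTSeq 0.6.1, pooled no replicates, and deposited FPKM values per gene in 1 table. Which wheat genome release was used is not given in the sources used here, so no coordinates are printed, and the chromosome arm is that in the gene identifier. No strand-specific counting is stated, so overlapping antisense genes may share reads. Near-identical homoeologs may share reads as well.

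Each library was divided by its median ratio to the mean profile over genes with a mean of at least 1 FPKM (factors 0.861 to 1.096), 0.1 was added, and log2 values were fitted with limma 3.58.1 (R 4.3.3, trended variance, 9 libraries, 3 groups, 6 residual degrees of freedom), with Benjamini-Hochberg adjustment over all 78030 genes. A log2 fold change is therefore on the log2(FPKM + 0.1) scale and understates changes of low genes. FPKM values printed per library and summed are as deposited. Dividing FPKM by the value of 1 fragment gave whole numbers, within 0.01 fragments, for 100% of the 91537 genes above 0, which gave the depths and the floor of 3 fragments per library. Folds against that floor cover counting error only. DEGs had an unadjusted P-value under 0.01 and a log2 fold change of 1 or more in either direction. Over 3 against 3 libraries, a single-gene exact permutation test cannot go below 0.1 (two-sided), so the fit across all genes was used.

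Same-numbered DTT + TUDCA and control libraries deviated together from their group means (correlations 0.27, 0.27 and 0.21 over 55137 genes), so the replicate numbers were taken to pair them, and a fit with the number as a block was run. The gene lists are those of the study (28 lists by pathway, GO term or transcription factor family), and they and the members were chosen with earlier results of these data known. Genes were named by these rules: all members of the ER, hormone and candidate lists by class with examples, the 6 largest rises and falls by fold and by FPKM among DEGs that met every criterion, and the leading DEGs of each other list. The scripts were tested on simulated data. The value added, the low-value minimum, the scaling, the variance trend, the libraries, the threshold and limma-voom on recovered fragments were varied. Python 3.11.15, pandas 2.3.3, numpy 2.4.6 and matplotlib 3.10.9 were used.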

Additional observations from a re-analysis of the deposited data

How the results depend on the processing

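Over 21 other settings, no DEG among the 233 genes taken by the rules for named genes or printed outside them changed direction, and of 4865 gene values 330 lost and 11 gained a call. Adding 1 before log2 in place of 0.1 gave 3402 DEGs (1801 up-regulated, 1601 down-regulated), 9 down-regulated ER genes, and 87 up-regulated and 65 down-regulated transcription factor genes. FPKM as deposited gave 1651 down-regulated genes, of which 7 were in the ER list, 4 in the oxygen evolving complex, 5 in photosystem I, 16 in the hormone list and 75 among the transcription factors. Quantile normalization left 6 down-regulated genes in the oxygen evolving complex and 2 in photosystem I. A model of the DTT + TUDCA and control libraries alone left 3503 genes at an adjusted P-value under 0.05, and requiring that adjusted threshold with the fold limit left 17 down-regulated hormone genes. With the replicate block, 3429 genes were up-regulated and 2847 down-regulated, and PR-1 had 6 down-regulated genes in place of 8. The block ended the calls of 3 PR-1 genes and 1 BRI1 gene and no other call among the 233 genes, while with only DTT + TUDCA and control in the blocked model 11 of these calls changed, all of them ended except that of Traes_7DL_988A0B630, which became a DEG (2.40). Leaving out 1 library at a time gave 4776 to 7699 DEGs, 2807 to 3696 up-regulated and 1921 to 4202 down-regulated (4202 without DTT + TUDCA library 1), and 2585 to 6903 genes at an adjusted P-value under 0.05. By list, the up-regulated and down-regulated counts were then 35 to 39 and 8 to 15 (ER), 37 to 43 and 14 to 28 (hormones), and 138 to 162 and 90 to 116 (transcription factors), with 16 to 20 up-regulated for response to water, and 5 to 10 and 6 to 11 down-regulated for the oxygen evolving complex and photosystem I. Where a single library remains decisive, the cause was not tested. At 16334906 to 26760247 fragments per library, genes with 3 fragments or fewer throughout a group give bounds and no fold.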
